A study of Mus musculus with 12 samples.

Results

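Prdm1, the gene of the transcription factor Blimp1, and 6 further genes of the plasma cell programme (Irf4, Xbp1, Sdc1, Jchain, Mzb1 and Tnfrsf17) were followed in splenic B cells of a pair of mouse lymphoma models and their controls. The 7 genes were chosen by symbol, each matched a single entry among the 50686 genes of the count files, and all 7 passed the filter on low counts that left 17754 genes for testing. The series title calls the tumours ABC-DLBCL-like, after the large-cell lymphoma of activated B cells in humans. pBIC mice (n = 6) had floxed p53 and floxed Blimp1 together with a constitutively active IKK2 transgene behind a floxed stop cassette (p53F/FBlimp1F/FIKK2castopF/stopFCg1Cre/+). BIC mice (n = 3) had the same alleles without floxed p53 (Blimp1F/FIKK2castopF/stopFCg1Cre/+). YC mice (n = 3) were normal controls with a yellow reporter behind a stop cassette (YFPstopF/+Cg1Cre/+). All 3 groups carried Cg1Cre, a Cre driven from the IgG1 constant region locus that is active in B cells of the germinal centre. Live B220+ cells with a reporter were sorted from spleen, GFP+ in pBIC and BIC and YFP+ in YC. The labels give no age or sex.

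Plasma cells are the antibody-secreting end stage of the B cell lineage. Irf4 and Blimp1 switch the B cell programme off and the plasma cell programme on, and Xbp1 enlarges the endoplasmic reticulum and the secretory pathway for antibody export. Blimp1 is needed for that step, so a B cell with both Prdm1 alleles inactivated cannot become a full plasma cell. Blimp1 is often inactivated in the human lymphoma that these mice model. B220, the surface marker used for the sort, is itself reduced on plasma cells.

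The promoters of the floxed gene and of the 3 genes that fell in pBIC against YC are shown for their sequence only. The use of start sites was not measured. The promoters are RefSeq windows on GRCm38.p6, from 250 bases before to 50 bases after the start, read 5′ to 3′ along the gene. The Prdm1 window lies inside the counted gene, which runs from 44437177 to 44528501, and not at its outer 5′ end. Capitals mark GAAAG, the core shared by Blimp1 and IRF sites, and CCACG, a core bound by XBP1, on either strand.
Prdm1, chr10:44458699-44458998, minus strand: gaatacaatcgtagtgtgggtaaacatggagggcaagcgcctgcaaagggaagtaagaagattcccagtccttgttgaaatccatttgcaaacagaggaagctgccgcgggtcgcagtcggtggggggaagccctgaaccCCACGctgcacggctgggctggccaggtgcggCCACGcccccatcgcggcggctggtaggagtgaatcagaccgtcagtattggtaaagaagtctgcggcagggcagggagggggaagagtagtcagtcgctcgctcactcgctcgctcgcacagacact
Jchain, chr5:88527848-88528147, minus strand: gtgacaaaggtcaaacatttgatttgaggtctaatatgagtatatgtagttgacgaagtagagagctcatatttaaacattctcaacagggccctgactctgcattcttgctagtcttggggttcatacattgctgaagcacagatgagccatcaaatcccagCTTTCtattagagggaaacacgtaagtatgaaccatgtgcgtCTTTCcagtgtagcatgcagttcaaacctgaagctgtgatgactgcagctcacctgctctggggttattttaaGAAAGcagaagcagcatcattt
Sdc1, chr12:8771146-8771445, plus strand: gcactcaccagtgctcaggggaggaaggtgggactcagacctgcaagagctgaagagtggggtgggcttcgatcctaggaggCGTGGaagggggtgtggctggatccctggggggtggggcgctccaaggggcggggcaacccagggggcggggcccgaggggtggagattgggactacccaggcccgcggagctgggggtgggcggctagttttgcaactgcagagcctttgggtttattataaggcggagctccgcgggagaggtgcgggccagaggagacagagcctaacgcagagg
Xbp1, chr11:5520391-5520690, plus strand: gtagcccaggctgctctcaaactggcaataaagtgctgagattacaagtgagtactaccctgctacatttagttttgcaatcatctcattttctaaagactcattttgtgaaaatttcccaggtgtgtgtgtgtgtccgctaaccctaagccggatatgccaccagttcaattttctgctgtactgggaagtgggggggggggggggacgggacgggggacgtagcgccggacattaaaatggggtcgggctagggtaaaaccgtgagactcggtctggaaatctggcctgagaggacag
The Jchain window held 3 matches to GAAAG, 2 of them on the opposite strand before the start and 1 after it, and no CCACG. The Prdm1 window held 2 matches to CCACG and the Sdc1 window 1, and neither held GAAAG. The Xbp1 window held neither core. GAAAG occurred in 57.3% and CCACG in 32.8% of 32851 RefSeq promoter windows of the same length. A paired GAAA form and an ETS and IRF composite, searched on both strands, occurred in 3.44% and 2.72% of windows and in none of these 4. A match is a description of the letters and not a measured binding site.

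Library totals ran from 33127283 to 47067627 counts. Levels are given as CPM, counts per 1e6 after TMM scaling, and a gene was called at an edgeR quasi-likelihood adjusted p under 0.05. Trp53, the p53 gene, averaged 23.7 ± 5.27 CPM in pBIC, 143 ± 68.4 CPM in BIC and 141 ± 5.30 CPM in YC (SD, n = 6, 3 and 3). Ikbkb, the IKK2 gene, averaged 488 ± 24.1 CPM in pBIC, 448 ± 81.0 CPM in BIC and 237 ± 17.5 CPM in YC. Trp53 fell in pBIC against YC (-2.58 ± 0.27, edgeR adjusted p = 0.000191) and against BIC, and Ikbkb rose in pBIC and in BIC against YC (1.04 ± 0.14 and 0.92 ± 0.16, edgeR adjusted p = 0.000722 and 0.00609). Every BIC library carried Xist at 1680 CPM or more, whereas the YC libraries had at most 5.13 CPM of it and carried Y-linked transcripts instead, so for BIC against YC sex-linked expression and genotype cannot be told apart. The pBIC libraries were mixed: 3 carried Xist at 1491 to 2633 CPM, 2 carried Y-linked transcripts at 299 CPM, and 1 had little of either. In bulk samples, fewer cells of a type and less RNA per cell cannot be told apart either.

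Prdm1 transcripts were counted in every tumour, although the gene was floxed in both models. Prdm1 (ENSMUSG00000038151.13, chromosome 10, 44437177 to 44528501, minus strand, GRCm38) encodes the zinc-finger repressor that ends the B cell programme. In pBIC its level ran from 0.718 CPM at the lowest through a median of 10.2 CPM to 21.3 CPM at the highest. In BIC it was 41.1, 31.6 and 5.33 CPM in libraries 1, 2 and 3, against 18.2, 18.1 and 19.98 CPM in YC 1, 2 and 3. The controls lay within a factor of 1.10 of each other, whereas the tumours spread by a factor of 29.6 in pBIC and 7.71 in BIC and lay on both sides of the controls. pBIC 3, with 26 counts, had the lowest level, and pBIC 5 and 6, at 21.3 and 19.5 CPM, were near the control level. The log2 fold change was -0.70 ± 0.74 for pBIC against YC (SE; edgeR adjusted p = 0.528), 0.47 ± 0.88 for BIC against YC (edgeR adjusted p = 0.779) and -1.17 ± 0.73 for pBIC against BIC (edgeR adjusted p = 0.282). The sign for BIC against YC rests on BIC 1, since without that library the value was -0.02. The counts sum all exons of the gene, so they include transcripts from a recombined allele that keep the other exons, and the labels do not say which part is removed.

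**Figure D1:**
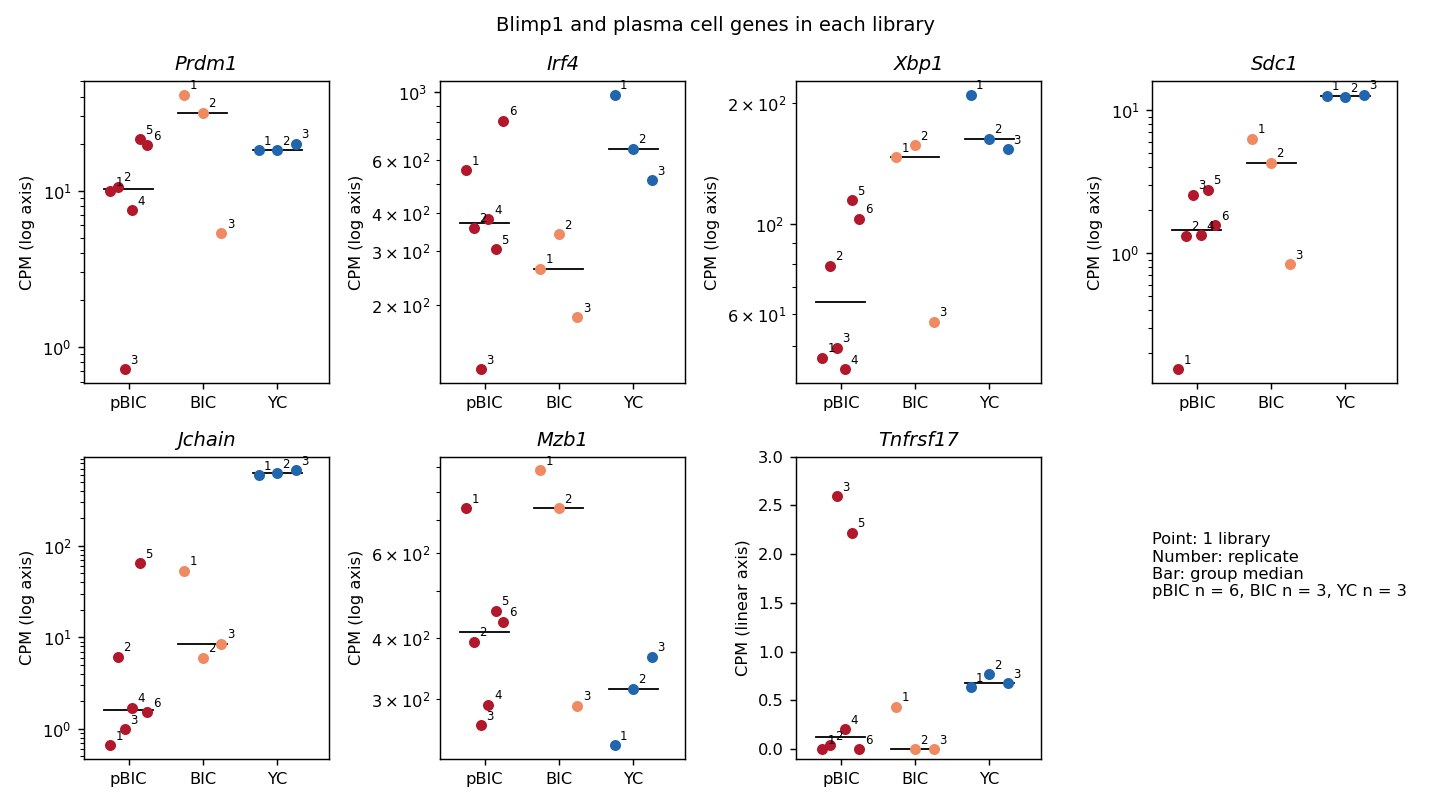
Level of each of the 7 genes in every library, in CPM on a log axis (Tnfrsf17 on a linear axis because 4 libraries had 0 counts), with pBIC, BIC and YC from left to right; each point is 1 library with its replicate number and each bar the group median. Jchain and Sdc1 lie below all 3 YC libraries in every tumour library, whereas Prdm1 lies on both sides of the controls and Mzb1 above or within their range.

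Among the 7 genes 3 fell in pBIC against YC, namely Jchain, Sdc1 and Xbp1, and none rose. DESeq2 called 2 of these, Sdc1 and Xbp1. It gave no adjusted p for Jchain in this or either other comparison, so it did not test that gene at the threshold. Over all tested genes 22% were called in that comparison, 10.2% being lower in pBIC. In BIC against YC none of the 7 was called by edgeR, where 8.88% of all genes were (3.9% higher and 4.97% lower in BIC), and Jchain, Irf4 and Mzb1 were the 3 with an unadjusted p under 0.05; DESeq2 called Irf4 alone. In pBIC against BIC none was called by edgeR or DESeq2, none had an unadjusted p under 0.05, and 19.7% of all genes were called, 8.78% being lower in pBIC. Of the 7 genes, 3 had no overlap between pBIC and YC, all lower in pBIC (26.1% of all genes had none, 13.2% with pBIC lower). Between BIC and YC 4 had none, all lower in BIC (45.2% of all genes, 23.2% with BIC lower). Between pBIC and BIC 0 had none (21.6% of all genes, 9.9% with pBIC lower). Both comparisons with YC share the same 3 control libraries. The median log2 fold change over the 7 genes was -0.76 for pBIC against YC, -1.45 for BIC against YC and -0.72 for pBIC against BIC, beside medians of 0.10, 0.01 and 0.09 over all tested genes.

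**Figure D2:**
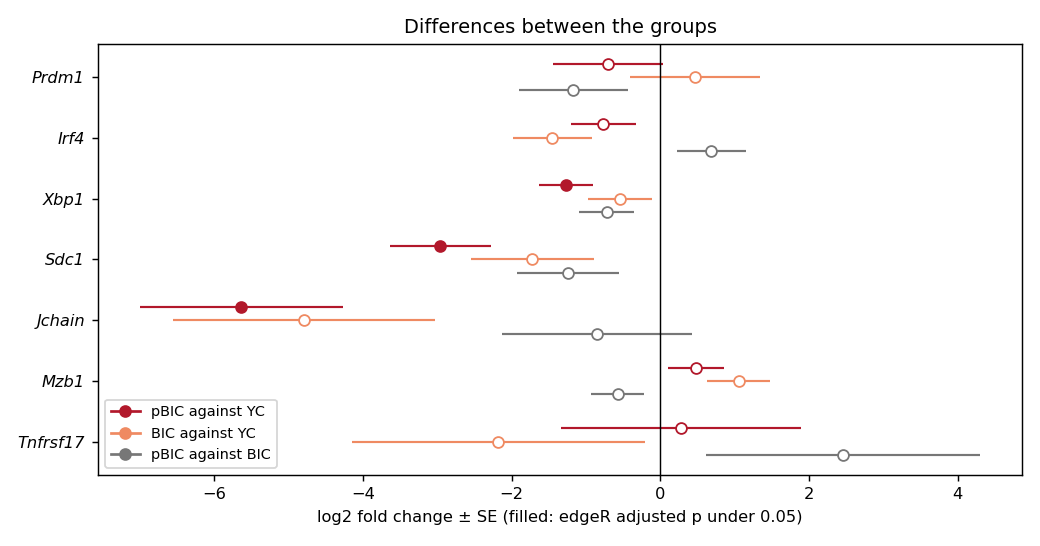
Log2 fold change with its SE for each gene in the 3 comparisons; filled points passed the edgeR threshold and open points did not. Jchain at -5.63, Sdc1 at -2.96 and Xbp1 at -1.26 for pBIC against YC are the 3 filled points.

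Irf4 (ENSMUSG00000021356.9, chromosome 13, 30749226 to 30766927, plus strand) encodes the interferon regulatory factor that induces Prdm1 when its level is high. It remained abundant in all tumours. In pBIC it ran from 122 CPM through a median of 370 CPM to 806 CPM, with the lowest level in pBIC 3 and the highest in pBIC 6. In BIC it stood at 262, 340 and 182 CPM in libraries 1 to 3, against 981, 652 and 513 CPM in YC 1 to 3. All 3 BIC libraries lay below the controls, whereas pBIC 1 and pBIC 6 lay within their range. Irf4 passed the test in no comparison (log2 fold change -0.76 ± 0.44 for pBIC against YC, edgeR adjusted p = 0.232; -1.45 ± 0.53 for BIC against YC, edgeR adjusted p = 0.109; 0.69 ± 0.46 for pBIC against BIC, edgeR adjusted p = 0.317). DESeq2 called it lower in BIC than in YC (adjusted p = 0.043).

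Xbp1 (ENSMUSG00000020484.18, chromosome 11, 5520659 to 5525893, plus strand) encodes the factor that drives the secretory expansion of plasma cells after its mRNA is spliced in the unfolded protein response; the gene counts do not separate the spliced form. It fell in pBIC against YC. Its level ran from 43.8 through a median of 64.3 to 115 CPM in pBIC. In BIC it was 146, 157 and 57.4 CPM in libraries 1 to 3, against 209, 163 and 153 CPM in YC 1 to 3. Every pBIC library was below every control, and of the BIC libraries only BIC 3 was as low as the pBIC range. The log2 fold change was -1.26 ± 0.36 for pBIC against YC (edgeR adjusted p = 0.027), -0.54 ± 0.43 for BIC against YC (edgeR adjusted p = 0.470) and -0.72 ± 0.37 for pBIC against BIC (edgeR adjusted p = 0.186). The pBIC call ended without YC 1, YC 2 or YC 3 in turn (edgeR adjusted p = 0.109, 0.074 and 0.0625), and with a term for the Xist level of each library (edgeR adjusted p = 0.0652).

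Jchain (ENSMUSG00000067149.6, chromosome 5, 88519809 to 88527891, minus strand) encodes the joining chain that links IgM and IgA into polymers, and is switched on as B cells begin to secrete antibody. It had the largest difference between tumours and controls among the 7 genes. In the 6 pBIC libraries, 1 to 6, it was 0.663, 6.12, 0.994, 1.70, 64.5 and 1.51 CPM. In BIC it was 53.2, 5.99 and 8.53 CPM in libraries 1 to 3, against 590, 620 and 666 CPM in YC 1 to 3. pBIC 1 thus held 0.106% of the YC mean, on 26 counts, whereas pBIC 5 and BIC 1 kept 10.3% and 8.51% of it. The log2 fold change was -5.63 ± 1.37 for pBIC against YC (edgeR adjusted p = 0.0125) and -4.79 ± 1.77 for BIC against YC (edgeR adjusted p = 0.112), and the models differed by -0.84 ± 1.28 (edgeR adjusted p = 0.680). Jchain was lower than in any control in 6 of 6 pBIC and 3 of 3 BIC libraries. Without pBIC 5 the value for pBIC against YC was -8.14, and pBIC against BIC was then called at -3.35 (edgeR adjusted p = 0.016). The value for pBIC against BIC was 0.79 without BIC 1. The pBIC call against YC ended when genes with low counts were not filtered out (edgeR adjusted p = 0.0556).

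Mzb1 (ENSMUSG00000024353.4, chromosome 18, 35647266 to 35649367, minus strand) encodes a chaperone of the endoplasmic reticulum that helps assemble IgM in marginal zone B cells and plasma cells. It stayed high where Jchain was nearly gone. It ran from 265 through a median of 413 to 741 CPM in pBIC. In BIC it was 885, 740 and 291 CPM in libraries 1 to 3, against 241, 315 and 366 CPM in YC 1 to 3. BIC 1, BIC 2 and pBIC 1, 2, 5 and 6 lay above all controls, and the other tumours lay within the control range. The log2 fold change was 0.48 ± 0.37 for pBIC against YC (edgeR adjusted p = 0.376), 1.05 ± 0.43 for BIC against YC (edgeR adjusted p = 0.144) and -0.57 ± 0.36 for pBIC against BIC (edgeR adjusted p = 0.282). Without BIC 3 the value for BIC against YC was 1.45 and was called (edgeR adjusted p = 0.049). Within a library, the ratio of Jchain to Mzb1 per kb of exon ran from 0.000322 to 0.0509 in pBIC and from 0.00291 to 0.0216 in BIC, against 0.654 to 0.880 in YC.

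Sdc1 (ENSMUSG00000020592.14, chromosome 12, 8771323 to 8793715, plus strand) encodes syndecan-1, or CD138, the heparan sulphate proteoglycan used as a surface marker of plasma cells. It fell in pBIC against YC. It was 0.153, 1.32, 2.57, 1.34, 2.78 and 1.56 CPM in pBIC 1 to 6. In BIC it was 6.34, 4.30 and 0.837 CPM in libraries 1 to 3, against 12.7, 12.4 and 12.8 CPM in YC 1 to 3. All 9 tumour libraries were below the controls, which differed from each other by a factor of 1.04. The log2 fold change was -2.96 ± 0.68 for pBIC against YC (edgeR adjusted p = 0.00955), -1.72 ± 0.83 for BIC against YC (edgeR adjusted p = 0.217) and -1.24 ± 0.68 for pBIC against BIC (edgeR adjusted p = 0.219). The ratio of Sdc1 to Prdm1 per kb was 0.942 to 1.02 in YC and 0.200 to 0.230 in BIC. It lay between 0.0226 and 0.261 in 5 of the pBIC libraries, whereas pBIC 3, where Prdm1 was nearly absent, had 5.24.

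Tnfrsf17 (ENSMUSG00000022496.5, chromosome 16, 11313812 to 11320074, plus strand) encodes BCMA, the receptor through which APRIL and BAFF keep plasma cells alive. It was low in all libraries. There were 0, 2, 94, 8, 96 and 0 counts in pBIC 1 to 6 and 20, 0 and 0 counts in BIC 1 to 3, against 30, 35 and 22 counts in YC 1 to 3. pBIC 3 and pBIC 5 reached 2.60 and 2.22 CPM, above the 0.634 to 0.768 CPM of the controls, and every other tumour was below them. For a count of 0 the limit of 3 counts was 0.0742 and 0.0683 CPM in pBIC 1 and 6, before TMM scaling. It was 0.0786 and 0.0841 CPM in BIC 2 and 3. Mates were counted separately, so these limits can be too low. No comparison passed (edgeR adjusted p = 0.919 between pBIC and YC, 0.5264 between BIC and YC, 0.371 between pBIC and BIC). The sign for pBIC against YC was positive at 0.28 and became negative without pBIC 3 (-0.48) or without pBIC 5 (-0.29).

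Compared per kb of exon, the order of the 7 genes was not the same in tumours as in controls. In pBIC it was Mzb1 (475 ± 188 CPM per kb, SD over libraries), Irf4 (89.3 ± 49.7), Xbp1 (22.4 ± 9.53), Jchain (4.997 ± 10.1), Prdm1 (2.08 ± 1.38), Tnfrsf17 (1.04 ± 1.496) and Sdc1 (0.425 ± 0.251). In BIC it was Mzb1 (705 ± 342 CPM per kb), Irf4 (55.5 ± 16.8), Xbp1 (37.0 ± 16.8), Jchain (8.97 ± 10.6), Prdm1 (4.66 ± 3.32), Sdc1 (1.005 ± 0.731) and Tnfrsf17 (0.178 ± 0.309). In YC it was Mzb1 (340 ± 69.8 CPM per kb), Jchain (248 ± 15.3), Irf4 (152 ± 50.9), Xbp1 (53.9 ± 9.17), Prdm1 (3.37 ± 0.186), Sdc1 (3.31 ± 0.0628) and Tnfrsf17 (0.850 ± 0.0841). Jchain thus stood at position 4 in both models, against position 2 in YC. In pBIC that position rests on pBIC 5, since without it Jchain averaged 0.873 CPM per kb and stood at position 5, after Prdm1 at 1.73 CPM per kb, and Jchain was below Prdm1 in 3 of the 6 pBIC libraries. In BIC it stood at position 5 without BIC 1, at 2.89 CPM per kb. In both models every neighbour after Mzb1 overlapped the next in its range over libraries, and in YC only Prdm1 and Sdc1 did.

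The tumour libraries differed from each other in which plasma cell genes they kept. Against the range of the YC libraries, 4 to 6 of the 7 genes were lower and 0 to 3 were higher in each tumour. pBIC 5 had the most genes above the controls, with Prdm1, Mzb1 and Tnfrsf17, and the highest Jchain of the pBIC libraries. pBIC 3 had the lowest Prdm1, Irf4 and Mzb1 of all tumours together with the highest Tnfrsf17. pBIC 6 kept Prdm1 at 19.5 CPM and Irf4 at 806 CPM with 1.51 CPM of Jchain. BIC 3 had lower Prdm1, Irf4, Xbp1, Sdc1 and Mzb1 than BIC 1 and BIC 2, and of its heavy-chain constant counts 92.4% were Ighm, where BIC 1 and BIC 2 had 69.0% and 58.0% Ighg3. The median SD of log2 CPM over all tested genes was 0.594 in pBIC, 0.336 in BIC and 0.267 in YC. For Prdm1 the SD was 1.75, 1.60 and 0.08 in pBIC, BIC and YC, and for Jchain it was 2.40, 1.69 and 0.09.

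**Figure D3:**
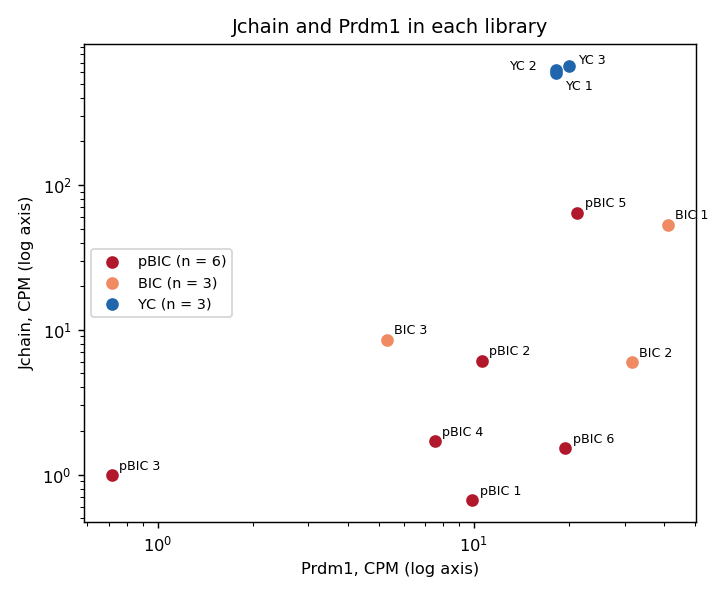
Jchain against Prdm1 in each library, both in CPM on log axes, with 1 point per library. The 3 YC libraries sit together at 590 to 666 CPM of Jchain, whereas pBIC 5 and pBIC 6, with Prdm1 near the control level, have 64.5 and 1.51 CPM of Jchain.

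Genes that oppose plasma cell fate, or that Blimp1 represses in normal plasma cells, mostly fell in pBIC against YC. Of 15 such genes 12 fell and none rose in pBIC against YC, with a median log2 fold change of -1.37 beside 0.10 over all tested genes. The share that fell was 80% of the list, beside 10.2% of all tested genes. Without YC 1, YC 2 or YC 3 in turn 7 fell, and 1 rose without pBIC 2. Of the 15 values 2 were positive in pBIC against YC, the larger being that of Myc (1.18 ± 0.42, edgeR adjusted p = 0.0646). Bcl6, the germinal centre repressor that holds Prdm1 off, changed by -5.88 ± 0.78 (edgeR adjusted p = 0.000566), and Irf8, a factor of naive and germinal centre B cells, by -1.83 ± 0.26 (edgeR adjusted p = 0.000873). Bcl6 was at most 9.23 CPM in pBIC and 9.34 CPM in BIC, against 152, 281 and 272 CPM in YC 1 to 3. In BIC against YC 2 of the 15 fell and none rose (13.3% lower beside 4.97% of all genes, median -0.75 beside 0.01; 1 fell without each library in turn), again Bcl6 (-4.95 ± 1.001, edgeR adjusted p = 0.0121) and Irf8 (-1.31 ± 0.32, edgeR adjusted p = 0.0265). The Bcl6 call in BIC ended without BIC 1 or BIC 2, and that of Irf8 without YC 1, YC 2, YC 3 or BIC 3 (edgeR adjusted p up to 0.0592 and 0.0802). In pBIC against BIC 4 fell and 1 rose (26.7% lower beside 8.78% of all genes), and without BIC 1 or BIC 2 the counts were 2 and 0. Spi1, the ETS factor PU.1, changed by -0.66 ± 0.13 and Spib, its relative, by -1.09 ± 0.28 (edgeR adjusted p = 0.00621 and 0.0185), and the growth regulator Myc rose by 1.51 ± 0.43 (edgeR adjusted p = 0.0299). The calls of Spib and Myc ended without BIC 1, and that of Myc also without BIC 2. Of 5 B cell markers Ptprc, the gene of CD45 and so of B220, fell in pBIC against YC (-1.75 ± 0.18, edgeR adjusted p = 0.00019), and the summed level of the 5 was 1581 to 5752 CPM in pBIC and 7228 to 7665 CPM in BIC, against 5930 to 7383 CPM in YC. Of these 5 markers 3 fell in pBIC against BIC (60% of the list beside 8.78% of all genes). Among them were Ptprc (-1.19 ± 0.18) and Ms4a1 (-1.72 ± 0.42; edgeR adjusted p = 0.00201 and 0.0156). The call of Ms4a1 ended without BIC 1. The part of these differences in B cell markers in the lower levels above was not tested.

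Xbp1 fell in pBIC against YC, but none of the measured genes of the secretory pathway that it serves was called lower in that comparison. Of 28 of them 6 rose and none fell in pBIC against YC (median log2 fold change 0.56 beside 0.10 over all tested genes), 3 rose and none fell in BIC against YC (0.20 beside 0.01), and 1 rose and 1 fell in pBIC against BIC (0.20 beside 0.09). In either direction 21.4%, 10.7% and 7.14% of the list were called in these 3 comparisons, beside 22%, 8.88% and 19.7% of all tested genes. The share that rose was 21.4%, 10.7% and 3.57% of the list, beside 11.8%, 3.9% and 10.9% of all tested genes. The share that rose was thus above that of all genes in both comparisons with YC, and below it in pBIC against BIC. The count of 6 was 1 without YC 1 or YC 2, 2 without YC 3, 3 without pBIC 2 and 9 without pBIC 4, and 1 gene fell without pBIC 6. Of the 28 values 21 were positive in pBIC against YC. Among the negative ones was that of Dnajb9 (-0.97 ± 0.41, edgeR adjusted p = 0.110). Ckap4, a sheet protein of the endoplasmic reticulum, rose by 1.93 ± 0.26 in pBIC and 2.07 ± 0.28 in BIC against YC (edgeR adjusted p = 0.000562 and 0.0023). Pdia4, a disulphide isomerase, had 253 to 1287 CPM in pBIC and 1238 to 1669 CPM in BIC, against 181 to 217 CPM in YC, and rose by 2.88 ± 0.52 in BIC against YC (edgeR adjusted p = 0.00738). Spcs2, a signal peptidase subunit, rose by 0.98 ± 0.28 in pBIC against YC (edgeR adjusted p = 0.0246), a call that ended without YC 1, YC 2 or YC 3. Fkbp11, a prolyl isomerase of secretory cells, rose in pBIC against BIC (3.92 ± 1.18, edgeR adjusted p = 0.0371), with 35.1 CPM in pBIC 3 and 16.4 CPM in pBIC 4, at most 4.72 CPM in the other pBIC libraries and at most 1.02 CPM in BIC. Its call ended without BIC 1, BIC 2, BIC 3 or pBIC 4. Pdia4 was lower in pBIC than in BIC (-1.35 ± 0.41, edgeR adjusted p = 0.0378), a call that ended in 7 of 9 cases when 1 library was left out.

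**Figure D4:**
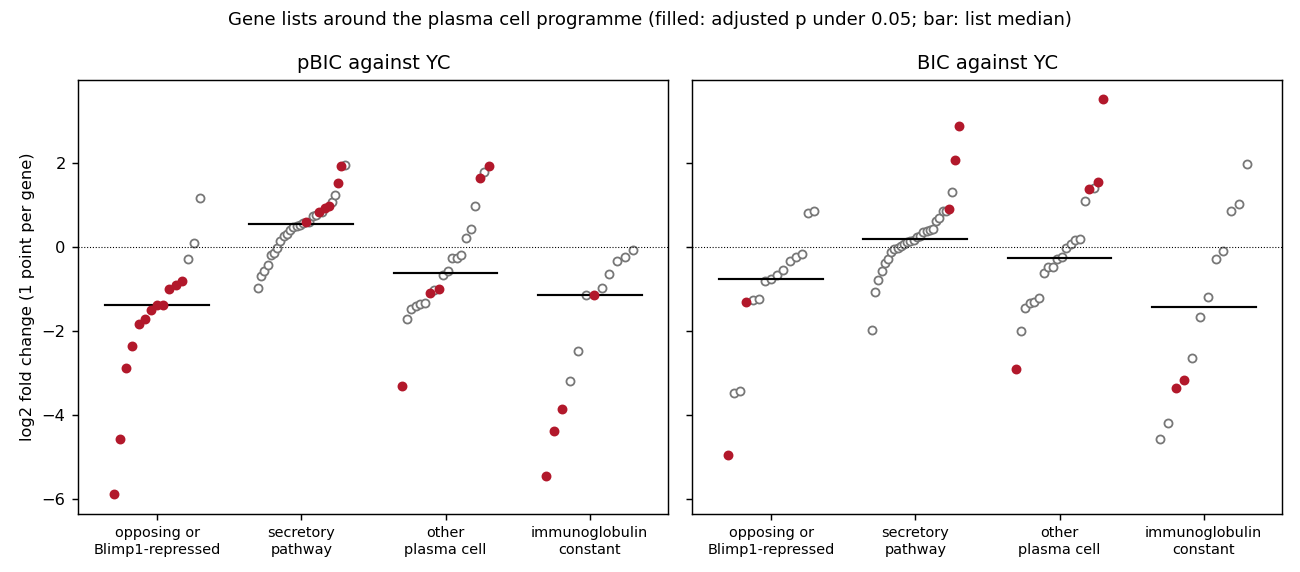
Log2 fold change of each gene of 4 lists in pBIC against YC and in BIC against YC; filled points passed the edgeR threshold and bars are list medians. In pBIC 12 of 15 opposing or Blimp1-repressed genes are filled below 0, and all 6 filled secretory genes lie above 0.

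A further 20 plasma cell genes went both ways. In pBIC against YC 2 rose and 3 fell (median -0.62 beside 0.10), in BIC against YC 3 rose and 1 fell (median -0.27 beside 0.01), and in pBIC against BIC none rose and 2 fell (median -0.42 beside 0.09). The share called was 25% in pBIC against YC beside 22% of all genes, 20% in BIC against YC beside 8.88%, and 10% in pBIC against BIC beside 19.7%. Without YC 2 or YC 3 only 1 fell in pBIC against YC, and without pBIC 4 or pBIC 5 7 and 5 did. Eaf2, which associates with ELL elongation factors, fell in both models against YC, with a log2 fold change of -3.31 ± 0.45 in pBIC (edgeR adjusted p = 0.000696) and -2.90 ± 0.58 in BIC (edgeR adjusted p = 0.0111). Its call in BIC ended without BIC 1. Txndc11, a thioredoxin-like protein of the endoplasmic reticulum, was the other lower gene named by its p in pBIC (-0.99 ± 0.27, edgeR adjusted p = 0.0205), and this call ended without YC 1, YC 2 or YC 3. Cd9, a tetraspanin of plasma and marginal zone B cells, rose by 1.93 ± 0.30 in pBIC and 3.52 ± 0.34 in BIC against YC (edgeR adjusted p = 0.00126 and 0.00106) and was lower in pBIC than in BIC (-1.59 ± 0.26, edgeR adjusted p = 0.00242). Sub1, a transcriptional coactivator, rose by 1.65 ± 0.24 in pBIC and 1.39 ± 0.26 in BIC (edgeR adjusted p = 0.00093 and 0.00794). Itgb7, a homing integrin chain, was lower in pBIC than in BIC (-1.35 ± 0.25, edgeR adjusted p = 0.00417). It rose in BIC against YC (1.56 ± 0.31, edgeR adjusted p = 0.0102), a call that ended without YC 3. In pBIC against YC it did not pass (0.21 ± 0.26, edgeR adjusted p = 0.594). Among the 4 other BAFF and APRIL ligands and receptors none passed the edgeR test in any comparison, and the lowest adjusted p was that of Tnfrsf13c for pBIC against YC (log2 fold change -1.13 ± 0.44, edgeR adjusted p = 0.0869).

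Immunoglobulin transcripts, the cargo of plasma cells, took a smaller share of counts in every tumour than in any control. All immunoglobulin genes together took 0.644% to 1.62% of counts in pBIC and 1.09% to 1.80% in BIC, against 2.165% to 2.21% in YC. The 95% Wilson interval of YC 3 was 2.17% to 2.18%. It covers counting error only and treats the mates of a pair as independent, so it can be too narrow. Of 12 constant genes 4 fell in pBIC against YC, 2 fell in BIC against YC and 3 fell in pBIC against BIC, and none rose. The share that fell was 33.3%, 16.7% and 25% of the list, beside 10.2%, 4.97% and 8.78% of all tested genes, and the median log2 fold changes were -1.14, -1.43 and -1.20 beside 0.10, 0.01 and 0.09. The counts were 2 in pBIC against YC without YC 1 and 5 in pBIC against BIC without pBIC 5. Igha changed by -5.44 ± 0.46 in pBIC and -3.36 ± 0.56 in BIC (edgeR adjusted p = 4.92e-05 and 0.00509), and Ighd by -4.38 ± 0.43 and -3.17 ± 0.54 (edgeR adjusted p = 0.000129 and 0.00559). In pBIC against BIC the lowest p values were those of Igha (-2.08 ± 0.43, edgeR adjusted p = 0.00697) and Ighg3 (-4.45 ± 0.97, edgeR adjusted p = 0.00915). Ighm, the constant gene with the highest mean level, did not pass and averaged 4581 ± 3349 CPM in pBIC and 3932 ± 2139 CPM in BIC, against 8926 ± 355 CPM in YC. pBIC 5 had 9019 CPM of Ighm, as much as the controls, and the highest Jchain of the pBIC libraries, whereas pBIC 1 and pBIC 2, with 6198 and 6369 CPM of Ighm, had 0.663 and 6.12 CPM of Jchain. Reads that map to several near-identical copies were not counted, so immunoglobulin levels are uncertain.

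Markers of other blood cells varied between libraries alongside these genes, and their part in the results was not tested. The summed level of 7 T cell markers was 7.50 to 40.4 CPM in pBIC and 43.0 to 122 CPM in BIC, against 8.43 to 20.8 CPM in YC; Cd3g rose in BIC against YC and fell in pBIC against BIC (4.55 ± 0.89 and -3.92 ± 0.66, edgeR adjusted p = 0.0105 and 0.00283), and no other T cell marker passed. The first of these calls ended without YC 1 or YC 3. Cd3g alone averaged 61.4 CPM in BIC, where each other T cell marker averaged at most 6.32 CPM. The 7 macrophage and monocyte markers summed to 15.1 to 355 CPM in pBIC and 174 to 271 CPM in BIC, against 47.5 to 91.0 CPM in YC; 1 rose and 1 fell in BIC against YC, and Adgre1 alone passed, lower, in pBIC against YC (-4.74 ± 0.56, edgeR adjusted p = 0.000314) and in pBIC against BIC. Both macrophage calls in BIC against YC ended without any 1 of the 6 libraries. The 6 neutrophil markers summed to 2.84 to 41.8 CPM in pBIC and 32.9 to 857 CPM in BIC, against 1.41 to 107 CPM in YC; all 6 fell in pBIC against BIC, 5 of them not without BIC 1 or BIC 2, and none passed against YC. The 5 erythroid markers summed to 17.1 to 340 CPM in pBIC and 77.6 to 249.1 CPM in BIC, against 15.05 to 381 CPM in YC, and none passed. The 5 NK cell markers summed to 1.55 to 18.2 CPM in pBIC and 12.3 to 17.5 CPM in BIC, against 7.90 to 14.9 CPM in YC; Nkg7 rose in BIC against YC and Gzma fell in pBIC against BIC, each call ending without most of the libraries in turn. The 8 plasmacytoid dendritic cell markers, cells that also carry B220, summed to 232 to 625 CPM in pBIC and 417 to 793 CPM in BIC, against 313 to 352 CPM in YC. Siglech, the defining marker of those cells, was at most 1.46 CPM in pBIC and 1.92 CPM in BIC, against at most 0.70 CPM in YC, and Klk1 had 0 counts in BIC 1 and in pBIC 1 and 4. Among these 8 markers Bst2 rose in both models against YC and Cd300c, with 0 counts in every YC library, was called in pBIC, not without YC 1, YC 2 or YC 3. The call of Bst2 in BIC ended without YC 2 or YC 3. Tcf4, another of these 8, averaged 312 CPM in pBIC, 551 CPM in BIC and 255 CPM in YC, the largest part of the summed level. The libraries with the most Jchain among the tumours were pBIC 5 and BIC 1. They had 41.8 and 492 CPM of neutrophil markers and 340 and 77.6 CPM of erythroid markers. In pBIC 5 both sums were the highest of the pBIC libraries. BIC 2, with 857 and 249.1 CPM, had more of both than BIC 1 but less Jchain, at 5.99 CPM. YC 1, with the highest sums of the controls at 107 and 381 CPM, had the lowest Jchain of the controls, at 590 CPM.

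The profile of Prdm1 over the 12 libraries was nearest to those of Fcer1g, Cstf2t, Pla2g7, Traf1 and Maml2 among 9476 genes of at least 5 CPM. Likeness was the root mean square difference of log2 CPM after each gene was centred on its own mean, and it was 0.59 for Fcer1g, 0.69 for Cstf2t, 0.77 for Pla2g7, 0.78 for Traf1 and 0.82 for Maml2. Of the programme, Xbp1 at 1.04, Irf4 at 1.17 and Mzb1 at 1.23 ranked 39, 226 and 449 in nearness among the compared genes, whereas Sdc1 at 1.81, Tnfrsf17 at 2.80 and Jchain at 3.11 ranked 7877, 9324 and 9393. The 12 libraries share their groups. Traf1, an adaptor of TNF receptors, was 10.6 CPM in pBIC 3 and 31.6 to 138 CPM in the other pBIC libraries. It was 206, 226 and 175 CPM in BIC 1 to 3, against 229, 145 and 144 CPM in YC 1 to 3. In BIC 3 Traf1 lay within the control range, whereas Prdm1 was below all controls. pBIC 3 was the lowest library for all 5 genes, as it was for Prdm1. The 5 were chosen for likeness to the Prdm1 profile, so their low level there follows largely from that choice.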

How the data were processed

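Poly(A) RNA from the sorted cells of 12 mice was read in pairs of 100 bases, per the labels' protocols. The files hold unnormalized read counts for each gene as deposited, made with featureCounts 1.5.0 on the GENCODE M13 annotation without paired-end, strand or multi-mapping options, per the file headers. Mates were therefore counted separately. STAR, edgeR and limma and the builds mm10 and GRCm38 are named in the submitters' processing notes. None of the 7 genes shares exon bases with another gene of that annotation. Names came from GENCODE M21 and matched 50462 identifiers, and unnamed identifiers held at most 0.017% of a library. Coordinates are those of the files (GRCm38, 1-based). Sample titles gave the groups. The names of the pBIC files carry a letter, h in 3 and l in 3, that the labels do not explain, and pBIC was treated as 1 group.

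The test was that of edgeR 4.0.16 under R 4.3.3 (TMM factors, expression filter by group with a minimum count of 10, robust quasi-likelihood F test, 1 coefficient per group over all 12 libraries, Benjamini-Hochberg over 17754 genes). Each SE was derived from F, as the size of the log2 value over the root of F, and restates the test. Log2 CPM used a prior count of 2. Alternatives were DESeq2 1.42.0, its size factors, no filter, only the groups compared, a replicate block, a term for log2 (Xist CPM + 1), immunoglobulin genes left out, and each library left out. The fit was also run on counts simulated from its own dispersions, with known changes in BIC only. That run does not test the assumptions of the model or the calls in pBIC. The limit for 0 counts is 3 counts over the raw library total, and such limits cover counting error only. They treat the mates of a pair as independent, so they can be too low. The replicates are separate mice, per the series' design text, and no replicate pair of a group agreed within counting noise.

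The 7 genes and the 12 other lists were chosen with earlier results of these data known. Genes named are the 7, Trp53, Ikbkb, up to 2 called genes in each direction per list and comparison in order of p, the constant gene with the highest level, and the 5 nearest to Prdm1 in profile, without immunoglobulin or T cell receptor segments, genes named by a clone or model number, or pseudogenes. Other genes, such as Siglech, were named after their values were seen.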

Additional observations from a re-analysis of the deposited data

Results flagged for a closer look

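Jchain in pBIC 5 stood apart from the other pBIC libraries, at 64.5 CPM beside a next highest value of 6.12 CPM. The summed erythroid markers stood apart in the same library, at 340 CPM beside 96.6 CPM, and the summed macrophage and monocyte markers in pBIC 6, at 355 CPM beside 129 CPM. In each case the gap to the nearest library, over the whole range of the group, exceeded Dixon's 95% critical value for 6 libraries. The gaps were taken on CPM alone. They were not tested on log2 CPM, the scale of the fold changes, so none is shown to stand apart on that scale. A chance rate of about 1 in 20 groups holds only if the values are normally distributed, which was not tested.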

How the results depend on the processing

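The call of Jchain and of Sdc1 in pBIC against YC held without each library in turn, and that of Xbp1 ended without each YC library. With the replicate block Sdc1 lost its call (-3.29, edgeR adjusted p = 0.0831) and Irf4 gained it (-1.22, edgeR adjusted p = 0.0439), and with the Xist term Xbp1 lost its call (edgeR adjusted p = 0.0652). The number of the 7 genes called in pBIC against YC was 2 to 3 over all 16 alternatives. In BIC against YC, where it was 0, it was 1 with DESeq2, 2 with only these groups in the fit, 2 with the replicate block, 1 with the Xist term and 0 to 1 without each library. In pBIC against BIC it was 0 to 1 without each library. Genes called over the whole table in BIC against YC were 1576, 3031 with DESeq2, 4602 with only these groups, and 563 to 1061 without each library. They were 3914 in pBIC against YC, and 1904 to 4376 without each library. They were 3496 in pBIC against BIC, and 1422 to 4134 without each library. The sign turned for Prdm1 in BIC against YC (-0.23 with the replicate block, -0.020 to 0.996 without each library), for Tnfrsf17 in pBIC against YC (-1.01 with the replicate block, -0.48 to 0.57 without each library) and for Jchain in pBIC against BIC (0.023 with the Xist term, -3.35 to 0.79 without each library). The cause was not tested. The list counts were recomputed under the same alternatives, a choice made after the data were seen. The 15 opposing genes had 1 to 7 lower in BIC against YC. The labels do not say that replicate numbers pair the mice. Correlations of same-numbered deviations ran from -0.0948 to 0.155, and the best match was at the same number in 7 of 18 cases. Whether same-numbered mice shared a batch or litter was not tested, so what the block stands for is not known. Depth limits Tnfrsf17, with 0 to 96 counts per library.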
